A study of Mus musculus with 42 samples.

Results

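Total RNA of mouse kidney was compared between kidneys obstructed for 10 days and contralateral kidneys. The comparison rests on 14 of the 42 libraries of a study that profiled the proximal tubule of the fibrotic kidney. They were chosen by the fraction (Total) and the state named in the labels, 7 libraries for each state, from 4 males and 3 females. Mice were 12 weeks old in both states. In unilateral ureteral obstruction (UUO) the ureter of 1 kidney is tied off, and the other kidney of the animal, called the contralateral kidney and labelled a healthy control, served as the comparison. The labels do not say on which day the contralateral kidneys were taken, and a contralateral kidney is not the kidney of an unoperated mouse. Cortex was dissected and homogenised, mitochondria were removed, and beads with antibodies to green fluorescent protein (GFP) pulled down tagged ribosomes (translating ribosome affinity purification, TRAP). The bound fraction is labelled proximal tubule. The labels do not say whether Total is the unbound fraction or an input, nor do they name the tagged line or the promoter that drives it, or a strain. Libraries of day 5 of obstruction (7 Total) entered the fit as a further state.

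Obstruction raises pressure in the tubules and is a standard model of kidney fibrosis. The proximal tubule, which makes up most of the cortex, reabsorbs glucose, amino acids, phosphate and filtered proteins and lives on fatty acid oxidation. After injury its cells are known to lose carriers and metabolic enzymes, to switch on injury genes such as Havcr1 and Lcn2, and to release chemokines that draw in macrophages and lymphocytes, while fibroblasts and pericytes lay down collagen. RNA of a whole cortex sums all of these cells. In such bulk RNA, fewer cells of a type and less RNA per cell cannot be told apart.

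Library totals were 10441550 to 22516129 counts in the contralateral kidneys and 9307188 to 20563294 counts at day 10. Levels are given as CPM, counts scaled to a common library total after TMM (trimmed mean of M values) scaling, as the lowest, highest and median of the 7 libraries. TMM factors were 0.727 to 0.9 in the contralateral and 0.96 to 1.25 in the day 10 libraries. The first principal component took 57.1% of the variance and separated the states, at -120 to -95.3 for contralateral and 35.8 to 85.4 for day 10 libraries. The male day 10 library of replicate 3 stood apart from the other day 10 libraries on the second component and in Lars2, a mitochondrial leucyl-tRNA synthetase, at 1905 CPM against a range of 10270 to 34180 CPM. Lars2 itself ran at 5540 to 20120 CPM in the contralateral libraries, and its part in the results was not tested beyond the fits with it as a covariate and those without the 3 libraries under 3000 CPM of Lars2. Without that male library 5712 genes were called in place of 5814.

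Of 16782 genes tested, 3506 rose (20.9% of those tested) and 2308 fell (13.8%) at day 10, by a Benjamini-Hochberg adjusted p under 0.05 in edgeR's quasi-likelihood test and a change of at least 2-fold. Changes are log2 fold changes of day 10 over contralateral, with the sexes weighted equally and an approximate standard error (SE) after the ± sign. The median over all genes tested was 0.06. Among the genes that rose the median was 2.2, and 421 rose at least 16-fold. Among the genes that fell it was -1.58, and 53 fell at least 16-fold. The ranges of the 7 and 7 libraries did not overlap for 4976 genes (29.7% of those tested), of which 3860 were called. Genes that fell held 45.9% to 48% of all counts in the contralateral kidneys and 12.8% to 23.5% at day 10. Genes that rose went from 2.37% to 3.24% of counts to 13.3% to 17%. With library totals alone in place of TMM the median over all genes was 0.42, a shift of 0.36, and 76% of called genes were higher in place of 60.3%. The labels do not say that the libraries came from separate animals, so p-values measure the spread between these samples.

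Genes of tubule injury and repair rose in the obstructed kidney. Of 32 tested, 27 rose and 1 fell, with a median of 2.96. The list's summed level was 2760 to 7090 CPM in the contralateral kidneys and 13700 to 33600 CPM at day 10. Havcr1 encodes KIM-1, a phagocytic receptor of injured proximal tubule cells. It was at 10.6 to 35.9 CPM (median 21.04) in the contralateral kidneys and at 163 to 717 CPM (median 552.5) at day 10, a log2 change of 4.43 ± 0.25 (adjusted p = 6.96e-13). The states did not overlap, and the lowest day 10 value came from the female library of replicate 3. Lcn2, which encodes the iron-siderophore carrier NGAL, went from 0.768 to 2.21 CPM (median 1.43) to 184.5 to 521 CPM (median 246), a change of 7.72 ± 0.33 (adjusted p = 3.99e-14). It was among the 12 largest rises of called genes with a mean of 5 CPM or more in 1 sex and state and ranges that did not overlap within a sex, and each day 10 library was far above each contralateral one. Krt20, a keratin of urothelium and injured tubule, went from 1.005 to 3.93 CPM (median 1.605) to 13.9 to 144 CPM (median 80.3), a change of 5.24 ± 0.54. Its day 10 range was wide, with the lowest value again in the female library of replicate 3. Spp1, the secreted phosphoprotein osteopontin, was at 876 to 4591 CPM (median 1494) and reached 7014 to 24060 CPM (median 22290), a change of 3.16 ± 0.26. It had the largest gain in CPM of the genes called, and its lowest day 10 value was that of the male library of replicate 3. Vcam1, an adhesion molecule for leukocytes, went from 4.396 to 14.01 CPM (median 4.78) to 145 to 271 CPM (median 191), a change of 4.99 ± 0.25. Sprr2f, one of a family of near-identical small proline-rich proteins whose reads are hard to tell apart, changed by 7.18 ± 0.58. The member that fell was Ccnd1 (cyclin D1), from 226 to 663 CPM (median 532) to 72.8 to 193 CPM (median 144), a change of -1.79 ± 0.24. Krt7 was the most abundant member that was not called, at 0.33 (adjusted p = 0.109).

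**Figure D1:**
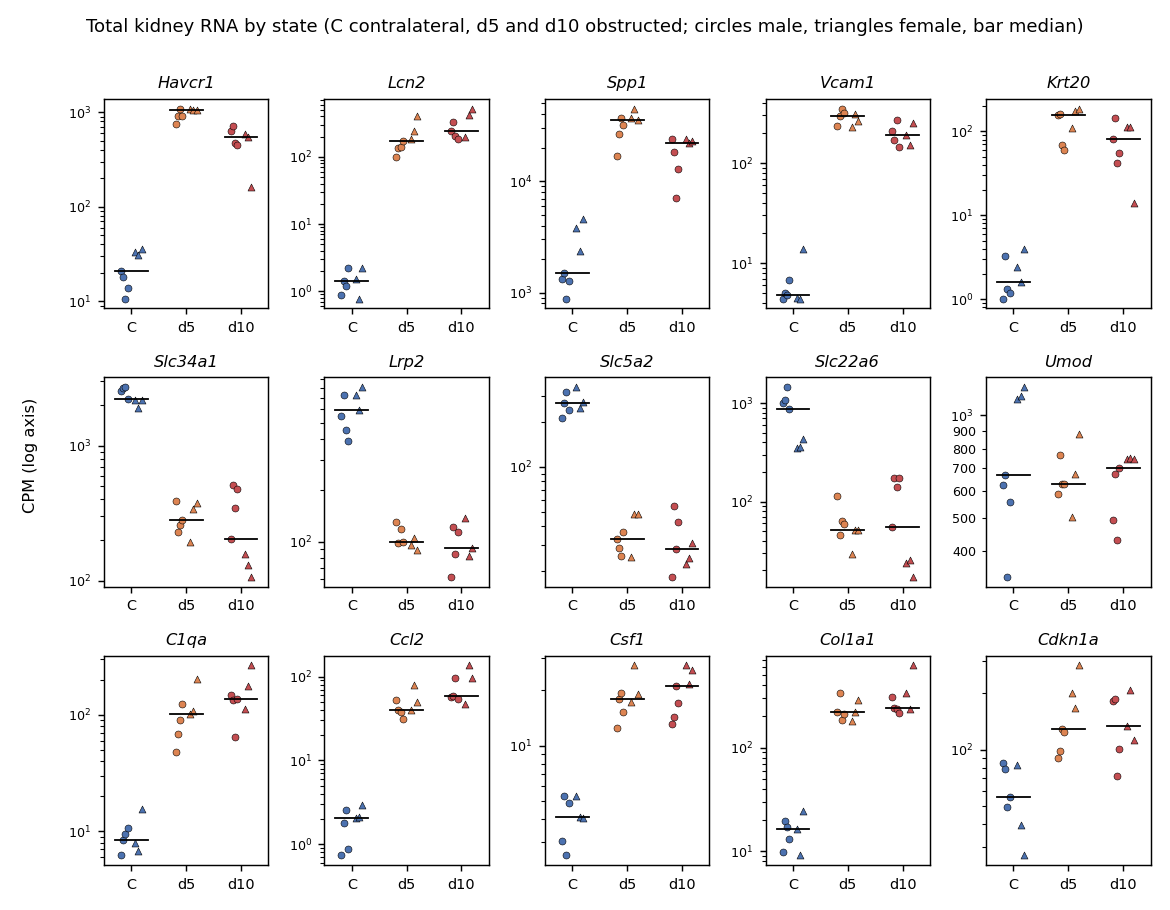
CPM (log axis) of marker genes in each Total library, by state (contralateral, day 5, day 10) and sex, 1 point per library. Havcr1, Lcn2, Vcam1, Ccl2, C1qa and Col1a1 sit higher in all 7 day 10 libraries than in all 7 contralateral ones, and Slc34a1 and Lrp2 sit lower.

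The carriers of the proximal tubule fell. Of 40 solute carriers tested 35 fell, with a median of -2.18, and their summed level went from 10200 to 15200 CPM in the contralateral kidneys to 1230 to 4410 CPM at day 10. Slc34a1, the sodium-phosphate cotransporter NaPi-2a, was at 1893 to 2728 CPM (median 2220) and fell to 106 to 515 CPM (median 205), a change of -3.35 ± 0.21 (adjusted p = 4.44e-12). Slc5a2, the glucose carrier SGLT2, went from 214 to 344 CPM (median 269) to 18.2 to 55.03 CPM (median 27.9), a change of -3.16 ± 0.21. The states did not overlap for either gene. Slc22a6, the organic anion carrier OAT1, changed by -3.57 ± 0.26, and its relative Slc22a8 (OAT3) by -4.88 ± 0.44, one of the 12 largest falls by the same rule, from 190.3 to 609.7 CPM (median 399) to 4.003 to 25.7 CPM (median 10.5). Slc34a3 (NaPi-2c) changed by -4.37 ± 0.41 and the neutral amino acid carrier Slc6a19 by -4.02 ± 0.24. Slc34a1 overlaps Pfn3 on the other strand, and the strand setting of the counting is not given in the sources used here. Slc36a2, a proline and glycine carrier, was the member that rose, at 4.68 ± 0.67, from 0 to 0.573 CPM (median 0.0666) to 0.732 to 8.52 CPM (median 1.31). Slc13a1, a sulfate carrier, was not called at -0.11, a value whose sign turns with library totals in place of TMM.

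Genes of endocytosis and the brush border fell in 17 of 22 members (median -1.46), and none rose at these thresholds. Lrp2, which encodes megalin, the receptor for filtered proteins, went from 387 to 810.2 CPM (median 590.4) to 61.7 to 138 CPM (median 92.2), a change of -2.62 ± 0.18 (adjusted p = 1.69e-11). Alpl, the brush border alkaline phosphatase, changed by -2.25 ± 0.17, and Pdzk1, a scaffold of apical carriers, by -2.17 ± 0.21. Napsa, an aspartic protease, was not called at -0.44, and its ranges overlapped. Of 19 transcription factors tied to the proximal tubule 9 fell and 2 rose (median -0.80). Hnf4a, a master regulator of the mature tubule, went from 415 to 543 CPM (median 519) to 76.1 to 177 CPM (median 136), a change of -1.997 ± 0.13. The 2 that rose were Runx1, at 4.49 ± 0.23 from 1.83 to 4.06 CPM (median 2.09) to 39.5 to 90.2 CPM (median 47.2), and Pparg, at 1.64 ± 0.32. Nr1i3, the receptor CAR, also fell, at -2.30 ± 0.69, from 0 to 0.768 CPM (median 0.737), and its ranges overlapped.

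Enzymes of gluconeogenesis, amino acid and vitamin D metabolism, which the proximal tubule shares in part with the liver, fell. Of 30 members 28 fell and none rose, with a median of -2.68, and the summed level went from 42700 to 61400 CPM to 4570 to 12800 CPM. G6pc, the catalytic subunit of glucose-6-phosphatase, went from 359.6 to 616 CPM (median 470.0) to 4.92 to 40.2 CPM (median 18.9), a change of -4.66 ± 0.29 (adjusted p = 1.21e-11). No day 10 library came near the contralateral range. Gldc, the glycine cleavage enzyme, changed by -4.34 ± 0.21. Bhmt, which remethylates homocysteine, had the largest fall of the list, at -6.30 ± 0.44, but from a level of 1.12 to 21.9 CPM (median 2.13) that differed between the sexes. Ttc36 was not called at -1.38, and its contralateral libraries ran from 67.2 to 896 CPM. Fbp1, Miox and Gatm, enzymes of gluconeogenesis, inositol and creatine metabolism, were among the 10 largest losses of CPM. Gatm went from 2626 to 4663 CPM (median 4214) to 157 to 449 CPM (median 277).

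Fatty acid oxidation and peroxisomal genes fell in 29 of 36 members, with a median of -1.71. None of the 36 was higher than 0 in log2 change: the highest was -0.57. Ppara, the nuclear receptor that drives the pathway, went from 122 to 189 CPM (median 149.9) to 13.5 to 43.4 CPM (median 23.4), a change of -2.72 ± 0.20. Acsm2, a medium-chain acyl-CoA synthetase, changed by -3.11 ± 0.22, and Acaa2, the last enzyme of mitochondrial beta-oxidation, by -2.69 ± 0.16. Respiratory chain and citrate cycle genes fell in 31 of 39, with a median of -1.32. With library totals in place of TMM 17 of the 39 fell, at a median of -0.97. Suclg1, a subunit of succinyl-CoA ligase, changed by -2.08 ± 0.26 and Cycs (cytochrome c) by -1.95 ± 0.20. Cox4i1 missed the fold threshold at -0.85 (adjusted p = 8.29e-05), with ranges that did not overlap. Transcripts of the mitochondrial genome held 2.13% to 4.85% of counts in the contralateral kidneys and 0.721% to 2.45% at day 10, and mt-Cytb changed by -1.49 ± 0.22. The extract was cleared of mitochondria in both states.

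Glycolysis did not move as 1 group. Of 18 genes 3 rose and 4 fell, with a median of -0.56, beside the 20.9% and 13.8% of all genes tested. Hk2, a hexokinase, rose from 0.105 to 0.774 CPM (median 0.286) to 5.62 to 15.7 CPM (median 6.54), a change of 4.58 ± 0.36. Hk3, a hexokinase of myeloid cells that overlaps Unc5a on the other strand, changed by 2.87 ± 0.47, and Slc16a3, a lactate exporter, by 2.37 ± 0.41. Pfkm changed by -1.39 ± 0.17 and Pgk1 by -1.37 ± 0.12. Gapdh changed by -1.41 ± 0.24, and the many processed copies of this gene make its count uncertain. The antioxidant list fell in 8 of 23 and rose in 1 (median -0.63). Gpx3, the plasma glutathione peroxidase made by the tubule, had the largest loss of CPM, from 50070 to 89070 CPM (median 66340) to 7814 to 24420 CPM (median 10690), a change of -2.48 ± 0.24. Mt2, a metallothionein, was the member that rose, at 1.67 ± 0.24.

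The later nephron segments fell unevenly. Distal convoluted and connecting tubule genes fell in 12 of 18, with a median of -1.80, and their summed level went from 6020 to 11800 CPM to 1050 to 1590 CPM. Pvalb (parvalbumin), a marker of the early distal convoluted tubule, had the largest fall of the genes named for falls, at -6.84 ± 0.59, from 43.5 to 147.5 CPM (median 85.4) to 0 to 2.38 CPM (median 0.473). Calb1 (calbindin), which carries calcium through the cell, went from 1323 to 3946 CPM (median 2845) to 52.7 to 122 CPM (median 91.5), a change of -4.87 ± 0.29. S100g, the smaller calbindin, changed by -4.24 ± 0.29. Collecting duct genes fell in 15 of 21 and rose in 1 (median -1.42). Aqp3, a basolateral water channel, changed by -2.84 ± 0.19, the anion exchanger Slc4a1 of acid-secreting cells by -3.09 ± 0.36 and Slc26a4 (pendrin) by -2.60 ± 0.24. Elf5, a transcription factor of principal cells, was the member that rose, at 1.60 ± 0.45, with ranges that overlapped. Loop of Henle genes fell in 7 of 18 (median -0.67). Egf, the epidermal growth factor precursor made by the thick ascending limb and distal tubule, went from 137 to 613 CPM (median 249) to 4.59 to 38.3 CPM (median 19.00), a change of -3.77 ± 0.41, and the potassium channel Kcnj1 changed by -2.13 ± 0.17. Umod (uromodulin), the most abundant member, was not called at -0.28 ± 0.16: its level was 336.5 to 1212 CPM (median 669) in the contralateral and 433 to 748.5 CPM (median 703) in the day 10 libraries, and its sign turns with library totals.

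The glomerular markers showed no common direction. Of 14 podocyte genes 1 rose and 1 fell, with a median of 0.05. With library totals 6 rose and none fell. The Lars2 covariate gives a median of -0.08. Without the male day 10 library of replicate 3 the count that rose is 3. Nes (nestin) was the member that rose, at 1.57 ± 0.23. Among 22 endothelial markers tested, 10 rose and 1 fell (median 0.98), and 16 rose with library totals. Aplnr, the apelin receptor, went from 1.61 to 4.05 CPM (median 2.405) to 10.1 to 18.5 CPM (median 14.98), a change of 2.48 ± 0.19. Selp (P-selectin) changed by 2.80 ± 0.57 and Vwf (von Willebrand factor) by 2.16 ± 0.42, both from under 1 CPM. Kdr, the VEGF receptor of capillaries, was the member that fell, at -1.02 ± 0.15, and lost its call in 3 of 14 fits that left out a library. It also missed the 2-fold threshold with upper-quartile factors (-0.88), library totals (-0.66), the 5 CPM filter (-0.96) and RPKM (-0.53). The same held without the 3 libraries under 3000 CPM of Lars2 (-0.94). Kdr kept its call in the remaining fits. Sele and Ackr1 did not pass the filter on low counts.

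**Figure D2:**
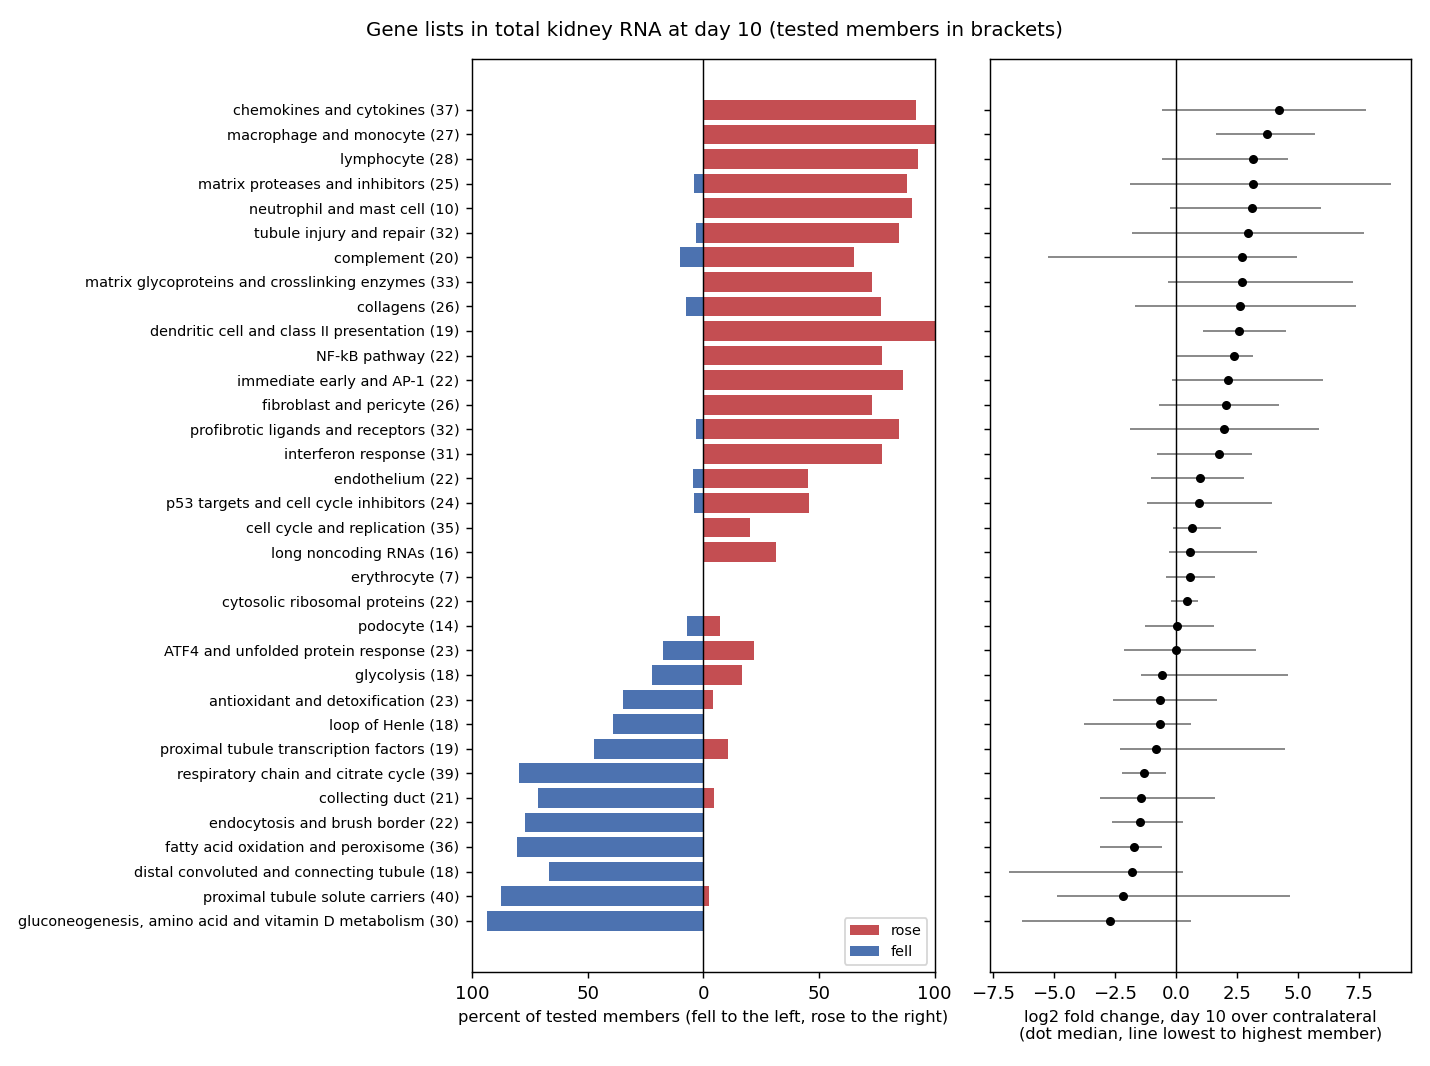
Log2 fold change of day 10 over contralateral for each gene list, with the share of tested members that rose or fell as bars (percent), the median as a point and a line from the lowest to the highest member. Injury, matrix and immune lists have medians of 1.76 to 4.25 and the carrier, brush border, gluconeogenesis, fatty acid and respiratory lists medians of -2.68 to -1.32. The upper ends of the protease (Mmp7) and profibrotic (Ereg) lines and the lower end of the complement line (Cfd) are fitted values of genes with no count in 1 state.

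Fibroblast and pericyte genes rose in 19 of 26, with a median of 2.05, and their summed level went from 244 to 447 CPM to 966 to 1470 CPM. Thy1, a surface protein of fibroblasts and T cells, changed by 4.25 ± 0.37, from 0.105 to 0.8602 CPM (median 0.335) to 1.67 to 11.2 CPM (median 7.17). The microfibril proteins Mfap5 and Mfap4 changed by 3.77 ± 0.29 and 3.48 ± 0.29. Ren1 (renin) was not called at 1.20 ± 0.51 (adjusted p = 0.0507), but was called in several other fits. It was 1.59 (adjusted p = 0.0357) with replicate number as a block, and the adjusted p was 0.00178 to 0.0362 with upper-quartile factors, library totals, the 5 CPM filter, DESeq2, limma-voom, RPKM or all 42 libraries. It was also called in 4 of 14 fits that left out a library. Its contralateral libraries ran at 7.51 to 116 CPM (median 46.4) and the day 10 ones at 42.7 to 250.5 CPM (median 113).

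Collagen genes rose in 20 of 26 and fell in 2, with a median of 2.63. Col1a1, a chain of type I collagen and the main fibrillar collagen of scars, went from 9.14 to 24.4 CPM (median 16.3) to 216 to 622 CPM (median 242), a change of 4.33 ± 0.26 (adjusted p = 3.94e-12). All day 10 libraries stood above the contralateral range. Col11a1, a minor fibrillar collagen, had the largest change of the list: 5 of 7 contralateral libraries had no count, and the ratio of the states was 167 (95% counting interval 45.8 to 1380), with day 10 at 1.25 to 4.81 CPM (median 3.54). Col8a2 changed by 4.92 ± 0.52. The members that fell were Col4a3 and Col4a4, chains of the mature glomerular basement membrane, at -1.64 ± 0.33 and -1.66 ± 0.20. Col4a4 went from 176.5 to 317.5 CPM (median 266) to 42.7 to 133 CPM (median 79.8).

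Matrix glycoproteins and crosslinking enzymes rose in 24 of 33 (median 2.70). Ltbp2, a protein of elastic microfibrils, went from 0 to 0.491 CPM (median 0.06702) to 7.61 to 38.2 CPM (median 13.3), a change of 7.26 ± 0.40. It shares its locus with a transcript of the other strand, D030025P21Rik. Fbn2 (fibrillin-2) changed by 6.43 ± 0.39 and Tnc (tenascin-C) by 5.73 ± 0.35, from 0.141 to 1.35 CPM (median 0.466) to 9.62 to 59.3 CPM (median 27.1). Tgm2, the crosslinking transglutaminase, was not called at -0.04, and its sign turns with library totals. Sparc and Mgp, both matrix-binding proteins, were among the 10 largest gains of CPM: Sparc went from 180.4 to 311 CPM (median 220.3) to 799 to 2313 CPM (median 1758) and Mgp from 22.99 to 107 CPM (median 40.2) to 714 to 1714 CPM (median 966).

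Matrix proteases and their inhibitors rose in 22 of 25 and fell in 1 (median 3.16). Mmp7, matrilysin, had no count in any contralateral library and was at 0.646 to 11.1 CPM (median 2.71) at day 10, at least 17.8-fold higher against a floor of 3 counts per library. Mmp3 changed by 6.22 ± 0.46 and Timp1, an inhibitor of metalloproteinases, by 6.52 ± 0.36, from 0.229 to 1.84 CPM (median 0.5995) to 38.9 to 99.1 CPM (median 69.1). Mmp12, the elastase of macrophages, went from 0.1396 to 0.804 CPM (median 0.3996) to 16.1 to 31.5 CPM (median 21.5), a change of 5.93 ± 0.28 (adjusted p = 7.25e-14). Timp3, the inhibitor that is abundant in the normal kidney, fell at -1.90 ± 0.23, from 539.7 to 1753 CPM (median 1149) to 191 to 673 CPM (median 227), and it overlaps Syn3 on the other strand. Ctsl (cathepsin L) stayed under the fold threshold at 0.85 (adjusted p = 0.000344). Of 32 profibrotic ligands and receptors tested 27 rose and 1 fell (median 1.98, or 1.92 with Ereg at its bound). Edn1 (endothelin-1) went from 1.41 to 3.44 CPM (median 2.15) to 29.6 to 65.5 CPM (median 44.4), a change of 4.36 ± 0.23. Il11, an interleukin of fibroblast activation, changed by 4.50 ± 0.45, from 0 to 0.422 CPM (median 0.0698). Ereg (epiregulin) had no contralateral count and was at least 2.33-fold higher against the same floor. Bmp7, a factor that opposes TGF-beta in the kidney, was the member that fell, from 42.6 to 65.2 CPM (median 51.2) to 12.1 to 15.8 CPM (median 13.5), a change of -1.90 ± 0.14. Hbegf was not called at 0.32.

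**Figure D3:**
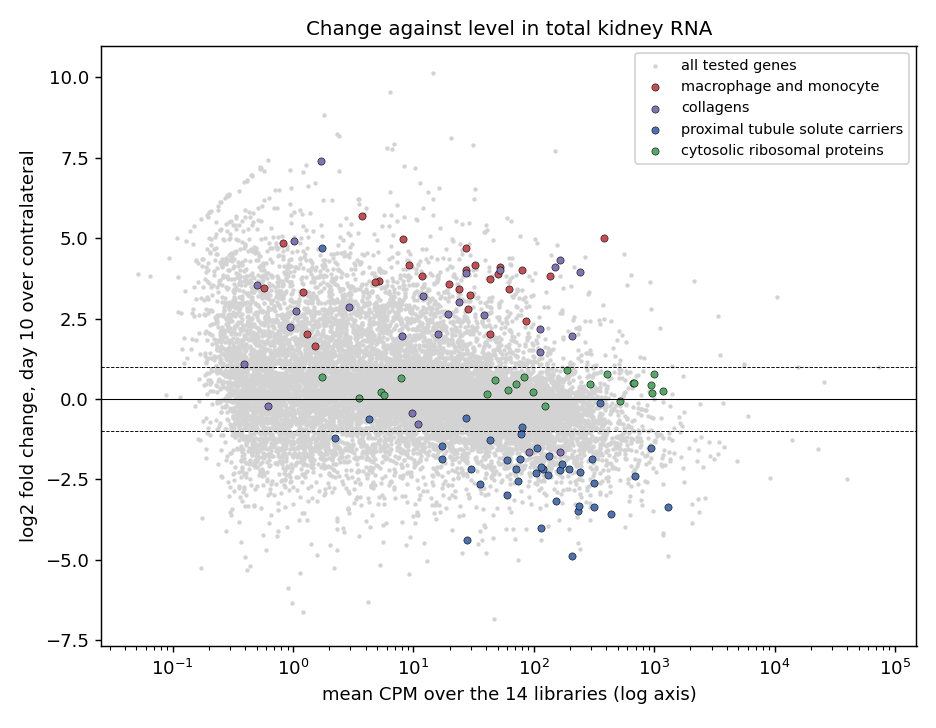
Log2 change at day 10 against mean level (CPM, log axis) for each gene tested (grey), with 4 gene lists in colour and dashed lines at 2-fold. The members of the macrophage list sit above 0 and most proximal tubule carriers below it.

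Markers of macrophages and monocytes rose as a whole list: all 27 tested rose, with a median of 3.74, and their summed level went from 109 to 258 CPM to 1730 to 3150 CPM. C1qa, a subunit of complement C1q made by tissue macrophages, went from 6.23 to 15.6 CPM (median 8.44) to 65.00 to 268 CPM (median 136), a change of 4.01 ± 0.30 (adjusted p = 2.74e-10). Lyz2, the lysozyme of myeloid cells, went from 11.6 to 49.4 CPM (median 18.8) to 525.5 to 1103 CPM (median 631), a change of 5.01 ± 0.34. Its near-copy Lyz1 changed by 5.70 ± 0.51, and reads shared between the copies may be split. Trem2, a lipid receptor of macrophages, changed by 4.96 ± 0.35. Chil3 did not pass the filter. Neutrophil and mast cell markers were near the floor: 10 of 20 passed the filter, of which 9 rose (median 3.11), and the summed level of the list was 2.95 to 22.7 CPM against 18.4 to 39.5 CPM at day 10. Csf3r, the receptor of the neutrophil growth factor, changed by 3.79 ± 0.38, from 0.105 to 0.3996 CPM (median 0.201) to 1.399 to 5.11 CPM (median 2.48). Ngp, a granule protein, had an SE of 1.23, was at 0 in part of both states, and lost its call in 1 of 14 fits that left out a library.

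Lymphocyte markers rose in 26 of 28 tested (median 3.17). Cd3d, a chain of the T cell receptor complex, went from 0.0573 to 0.703 CPM (median 0.1396) to 1.76 to 9.67 CPM (median 5.15), a change of 4.58 ± 0.47. Jchain, the joining chain of secreted IgA and IgM, changed by 4.19 ± 0.94, but the ranges overlapped, at 2.51 to 18.6 CPM (median 4.52) and 11.6 to 372 CPM (median 32.6). The members not called were Cd8a, at -0.57, which was named after its value was seen, and Trac, at -0.05, whose sign turns with library totals. The value of Trac averages unlike changes, by 3.08 more positive in females than in males. The call of that difference was lost in part of the alternative fits. Foxp3 and Ctla4 did not pass the filter. Genes of dendritic cells and class II presentation rose in all 19, with a median of 2.58. Cd74, the class II invariant chain, went from 224 to 387 CPM (median 309.5) to 2917 to 5237 CPM (median 3933), a change of 3.66 ± 0.20, and the class II chains H2-Aa and H2-Ab1 changed by 3.63 ± 0.23 and 3.86 ± 0.24, all 3 among the 10 largest gains of CPM. Cd209a changed by 4.51 ± 0.33. Red cell markers, a check of retained blood, did not pass in any of 7 (median 0.57), with 1 rising without the male day 10 library of replicate 3 and 3 rising with library totals. The kidneys were perfused.

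Chemokines and cytokines had the highest median of the lists, 4.25, with 34 of 37 tested rising. Ccl2, the monocyte chemoattractant MCP-1, went from 0.737 to 2.95 CPM (median 2.06) to 46.7 to 137 CPM (median 58.1), a change of 5.40 ± 0.30 (adjusted p = 3.18e-12). Cxcl1, a neutrophil chemokine, went from 0.768 to 2.33 CPM (median 1.27) to 29.1 to 95.1 CPM (median 60.8), a change of 5.46 ± 0.36. Both were apart from the contralateral range in all 7 day 10 libraries. Cxcl5 and Cxcl2 changed by 7.80 ± 0.47 and 6.43 ± 0.39, and Ccl8 by 6.71 ± 0.78, each from under 1 CPM. The ligands of the macrophage receptor CSF1R rose too: Csf1 went from 2.53 to 5.33 CPM (median 4.12) to 13.2 to 27.4 CPM (median 21.01), a change of 2.25 ± 0.18. Il34 changed by 2.35 ± 0.22, from 4.01 to 67.1 CPM (median 24.6) to 44.5 to 152 CPM (median 86.3), with ranges that overlapped between the states, and the contralateral libraries of the sexes lie apart. Cxcl12, which is made by stroma and endothelium, was not called at -0.38 ± 0.39. Ccl21a, Il1a, Il10, Csf2 and Csf3 did not pass the filter.

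The promoters of Mmp7, Mmp12 and Cxcl1, genes that rose, are shown because each holds a match to a motif of a factor family known from injury or myeloid cells. RefSeq lists 2 windows each for Mmp7 and Mmp12, of which 1 with the match is shown. The promoters were picked with the values known, are the 250 bases before the RefSeq start (GRCm38.p6, plus strand), and are written 5′ to 3′ with the match in capitals. The regions are chr9:7691840-7692089 for Mmp7, chr9:7344147-7344396 for Mmp12 and chr5:90890995-90891244 for Cxcl1. The AP-1 motif TGANTCA starts 63 bases before the start of Mmp7, and 6.75% of the 32851 RefSeq promoter windows hold it on either strand. The PU.1 motif, whose reverse complement is the capitals in Mmp12, 89 bases before the start, is in 0.323% of them. The NF-kB motif is the capitals in Cxcl1 with any base at the fifth position, 71 bases before the start, and is in 0.356%. A match of letters is a description of the window.
Mmp7: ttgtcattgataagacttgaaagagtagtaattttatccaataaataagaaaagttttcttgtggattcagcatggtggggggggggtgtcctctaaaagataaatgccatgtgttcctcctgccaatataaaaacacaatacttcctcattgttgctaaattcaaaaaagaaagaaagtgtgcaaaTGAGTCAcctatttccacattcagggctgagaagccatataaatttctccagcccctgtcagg
Mmp12: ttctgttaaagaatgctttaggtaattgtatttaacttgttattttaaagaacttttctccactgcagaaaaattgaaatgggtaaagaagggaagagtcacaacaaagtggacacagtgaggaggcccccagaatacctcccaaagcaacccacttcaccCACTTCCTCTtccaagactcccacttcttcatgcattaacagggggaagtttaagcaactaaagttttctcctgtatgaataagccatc
Cxcl1: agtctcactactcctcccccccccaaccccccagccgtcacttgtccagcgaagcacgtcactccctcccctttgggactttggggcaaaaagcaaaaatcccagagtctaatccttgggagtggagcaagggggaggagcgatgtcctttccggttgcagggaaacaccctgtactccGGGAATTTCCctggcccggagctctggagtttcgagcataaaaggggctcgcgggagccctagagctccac

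Complement genes rose in 13 of 20 tested and fell in 2 (median 2.72). C3, the central component, went from 5.86 to 19.2 CPM (median 10.8) to 202 to 412 CPM (median 304), a change of 4.80 ± 0.24 (adjusted p = 1.25e-13). Cfp (properdin) changed by 4.96 ± 0.24. The members that fell were C8g, at -1.83 ± 0.22, and Cfb, at -1.21 ± 0.29, and 4 fell without the 3 libraries under 3000 CPM of Lars2. Cfb has ranges that overlap. It lost its call with library totals (-0.86), RPKM (-0.49) and the Lars2 covariate (-0.87), and it overlaps Gm20547 on the same strand. Cfd (adipsin) had no count at day 10 and was not called (adjusted p = 0.078). Interferon response genes rose in 24 of 31 (median 1.76). Gbp2, a guanylate-binding protein, went from 2.48 to 10.3 CPM (median 3.49) to 25.1 to 83.2 CPM (median 40.9), a change of 3.11 ± 0.33, and Ifi27l2a and Zbp1 changed by 3.04 ± 0.33 and 2.92 ± 0.39. Irgm1 was not called at 0.37.

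NF-kB pathway genes rose in 17 of 22 (median 2.38), and none fell. Relb, a subunit of the factor, went from 1.75 to 3.56 CPM (median 3.397) to 17.6 to 40.00 CPM (median 24.9), a change of 3.12 ± 0.21. Nfkbiz, a nuclear regulator of the pathway, changed by 3.17 ± 0.19, and Cd40, a receptor that activates it, by 2.95 ± 0.24. Immediate early and AP-1 genes rose in 19 of 22 (median 2.13). Egr1 went from 2.75 to 4.95 CPM (median 4.41) to 31.2 to 92.3 CPM (median 66.6), a change of 3.87 ± 0.19, and Egr2 from 0 to 0.614 CPM (median 0.211) to 8.79 to 20.4 CPM (median 14.3), a change of 6.03 ± 0.36. Fosl1, an AP-1 subunit that overlaps Ccdc85b on the other strand, changed by 4.00 ± 0.38. Ier3 was not called at -0.07.

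Genes of p53 targets and cell cycle inhibitors rose in 11 of 24 and fell in 1 (median 0.97). Cdkn2b (p15) went from 0.211 to 1.15 CPM (median 0.5804) to 6.21 to 15.4 CPM (median 9.93), a change of 3.95 ± 0.32. Cdkn1a (p21) changed by 1.31 ± 0.25 (adjusted p = 0.00014), from 27.03 to 84.2 CPM (median 55.3) to 71.7 to 209 CPM (median 134), and its ranges overlapped. Bbc3 (PUMA) changed by 2.34 ± 0.30. Ccng1 (cyclin G1) was the member that fell, at -1.20 ± 0.17. Cell cycle and replication genes rose in 7 of 35 (median 0.66), beside the 20.9% of all genes tested that rose, and in 18 of 35 with library totals. Mcm3, part of the replicative helicase, went from 5.495 to 9.56 CPM (median 7.24) to 15.1 to 23.1 CPM (median 19.2), a change of 1.33 ± 0.13, and Ccne1 and Bub1b changed by 1.84 ± 0.43 and 1.44 ± 0.34. The unfolded protein and ATF4 list rose in 5 of 23 and fell in 4 (median 0.01, or 0.36 with library totals). These counts are near the 20.9% and 13.8% of all genes tested that rose and fell. Slc7a11, the cystine carrier, changed by 3.27 ± 0.46, and Asns, an ATF4 target, went from 6.44 to 12.99 CPM (median 10.02) to 22.6 to 97.8 CPM (median 51.2), a change of 2.21 ± 0.18. Shmt2, which overlaps Ndufa4l2 on the other strand, changed by -2.11 ± 0.16, Psat1 by -1.87 ± 0.18 and Herpud1 by -1.29 ± 0.15.

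Cytosolic ribosomal protein genes, a reference list, did not pass in any of 22 (median 0.45), with 6 rising under library totals. Rpl4 was at 996 to 1139 CPM (median 1080) and 1045 to 1516 CPM (median 1299). Long noncoding RNAs rose in 249 and fell in 188 of 1147 tested (median 0.08), near the 20.9% and 13.8% of all genes tested. Gm15867, which overlaps Sertad4, had the largest rise of the long noncoding RNAs named, a ratio of 63.2 (95% counting interval 21.3 to 309), at 0 to 0.1396 CPM (median 0) and 1.16 to 2.94 CPM (median 1.73). 4932411K12Rik changed by 5.46 ± 0.63 and Dhx58os by 5.41 ± 0.43. Gm11513 fell, at -6.63 ± 0.61, in a locus shared with Pdk2, and Gm12326 was 75.1-fold lower (25.3 to 367). Of the list of 16 noncoding genes tested 5 rose: Mir155hg changed by 3.33 ± 0.49, Dnm3os by 2.32 ± 0.40 and Snhg5 by 2.17 ± 0.15. Malat1, the most abundant, was not called, at 17370 to 27180 CPM (median 18970) against 11770 to 47700 CPM (median 27340).

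Several of the 12 largest rises, by the rule given for Lcn2, were of genes near 0 in the contralateral kidneys. Ear2, an eosinophil-associated ribonuclease with close copies, had a ratio of 627 (counting interval 173 to 5190), from 0 to 0.06702 CPM (median 0) to 5.21 to 19.2 CPM (median 14.1). Retnla, a resistin-like protein of alternatively activated macrophages, changed by 10.13 ± 0.84, from 0 to 0.335 CPM (median 0) to 8.996 to 60.4 CPM (median 29.8). Sftpd, a surfactant collectin, had a ratio of 450 (80.3 to 17800), and Rgs16, a regulator of G protein signalling, one of 242 (66.7 to 2000). Cxcl17, Il1f6 and Arhgap36 changed by 7.94 ± 0.43, 7.89 ± 0.55 and 8.13 ± 0.44. Il1f6 encodes the cytokine IL-36 alpha. Among the 12 largest falls were also Ttr (transthyretin), from 51.7 to 259 CPM (median 126) to 1.53 to 12.9 CPM (median 3.91), and Larp1b, from 11.4 to 25.3 CPM (median 16.4) to 0.231 to 0.744 CPM (median 0.401), changes of -5.02 ± 0.47 and -5.44 ± 0.23. Fth1, ferritin heavy chain, lost the most CPM after Gpx3, from 23800 to 45100 CPM (median 33780) to 5693 to 17460 CPM (median 10890). Actb gained by 1.36 ± 0.36, which fell to 0.99 without the male day 10 library of replicate 3, and Tmsb4x (thymosin beta-4) gained by 2.57 ± 0.17. Mir6236 was also named for gain in CPM, at 1.09 ± 0.40, but its ranges overlapped and its call was lost with a replicate block (0.88, adjusted p = 0.0533) and in 4 of 14 fits that left out a library. It was 0.25 (adjusted p = 0.329) with the Lars2 covariate and 0.65 (adjusted p = 0.0794) without the male day 10 library of replicate 1.

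Between day 5 and day 10 the obstructed kidneys differed in few genes. Of 16782 tested, 59 were higher at day 10 (0.352%) and 7 lower (0.0417%). By comparison 1930 genes had an unadjusted p under 0.05. Day 5 and day 10 are compared with the same contralateral libraries, so the values are given side by side. Lyz1 had the largest difference, 4.14 ± 0.43 (adjusted p = 2.1e-05), with day 5 at 0.199 to 0.766 CPM (median 0.341) and day 10 at 3.58 to 15.7 CPM (median 5.397). Retnla differed by 3.74 ± 0.48 (adjusted p = 0.00155), from 0.657 to 4.19 CPM (median 1.75) at day 5. Cxcl13, a B cell chemokine, differed by 3.54 ± 0.56 (adjusted p = 0.00611), from 0.175 to 1.59 CPM (median 1.06) to 3.06 to 21.5 CPM (median 7.87). Mmp12 differed by 1.93 ± 0.21 (adjusted p = 2.7e-05) and Npr3, a clearance receptor of natriuretic peptides, by 2.08 ± 0.29 (adjusted p = 0.00148). The ranges of the days did not overlap for these 5 genes, which were picked by the size of the difference. The share of all genes tested without overlap between the days was not computed. These 5 genes and Cyp4a12b, at -1.29 (adjusted p = 0.00288), were called in each alternative fit and with each library left out. The other named differences were lost under part of them: Penk differed by 2.15, Npy1r by 1.88, Cck by 1.83, Xirp2 by -1.69, Gsta2 by -1.41, Hmga1 by -1.29 and Prrg4 by -1.05. Among the lists, 7 chemokines and cytokines were higher at day 10 (Cxcl13, Ccl22, Tnf, Ccl6, Cxcl14, Ccl7 and Il1b), at 1.08 to 3.54, and the collagens Col11a1 and Col12a1, at 2.04 and 1.53. These list members were named after their values were seen. Of the 32 injury genes none was called between the days, and Havcr1 was -0.99 (adjusted p = 0.0297), just under 2-fold. Leaving out 1 library moved the count of 66 between 17 and 95. It was 28, 30 and 36 without the male day 5 libraries of replicates 1, 2 and 3, and 38 without the male day 10 library of replicate 4. It was 17, 21 and 31 without the female day 5 libraries of replicates 1, 2 and 3, and 21 without the female day 10 library of replicate 3. The 59 higher became 14 to 35 and the 7 lower 2 to 4 without each of these 8 libraries. Over all 14 such fits the higher count ran from 14 to 78, and the lower count was 14 without the male day 10 library of replicate 1 and 17 and 16 without the female day 10 libraries of replicates 1 and 2.

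**Figure D4:**
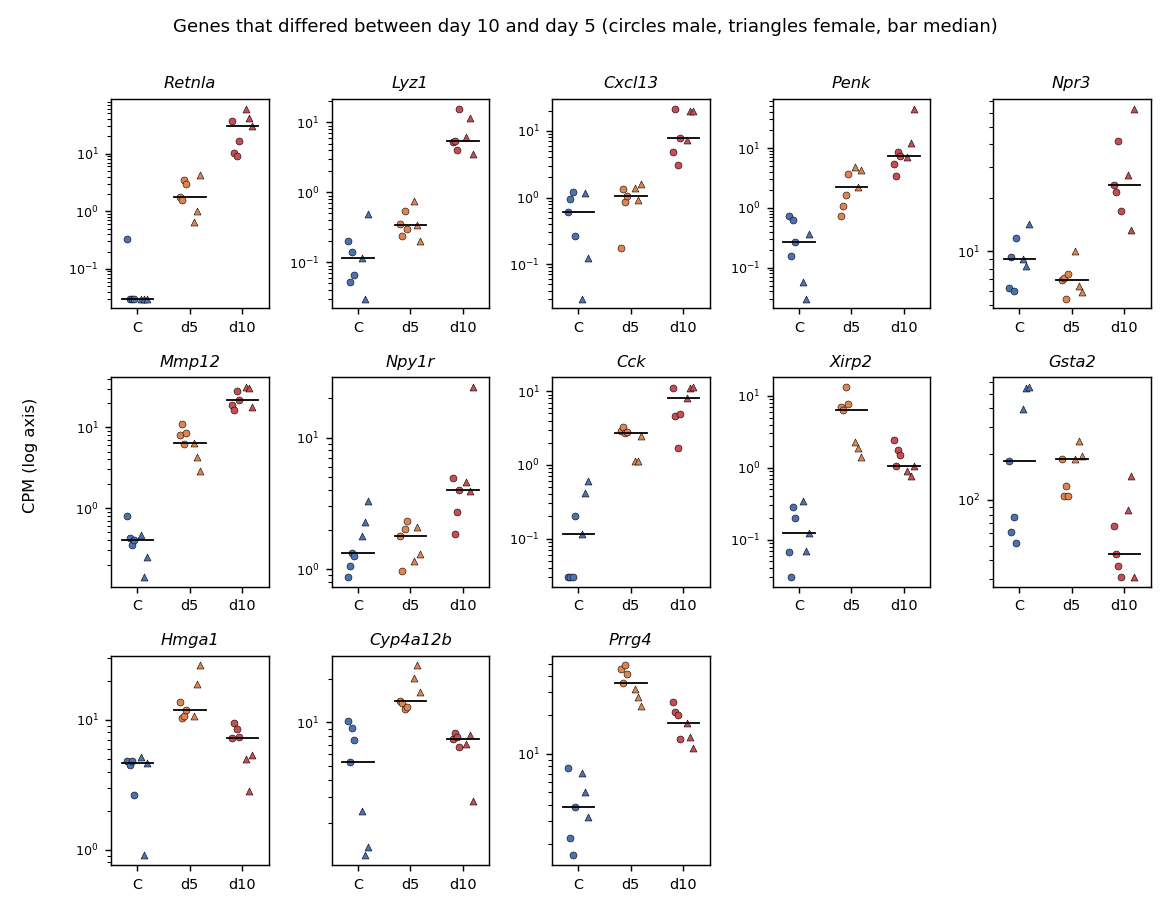
CPM (log axis) by library and state for genes that differed between day 5 and day 10, with values of 0 drawn at 0.03 CPM. For Lyz1, Retnla, Cxcl13, Mmp12 and Npr3 all 7 day 10 libraries sit above all 7 day 5 ones. The genes were picked by the size of the difference between the days.

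In males 3330 genes rose and 2112 fell, and in females 3099 rose and 2234 fell. Of the genes called in each sex 4272 were called in both with the same direction and 6 with the opposite one. Of the 5814 called genes 5803 had the same sign in both sexes, but these were called on the average of the sexes. That choice favours a shared sign, so the 5803 are no test of agreement between the sexes. The change itself differed between the sexes for 31 genes (0.185% of those tested), 22 with a more positive value in females. By comparison 1069 had an unadjusted p under 0.05. In each of the 12 genes named, the contralateral libraries of the sexes did not overlap. These genes were picked by the size of the difference, to which a gap between contralateral libraries contributes. The share of all genes tested with such a gap was not computed. Kynu, which breaks down kynurenine, was at 42.9, 63.1 and 79.9 CPM in contralateral females and at 5.63, 5.12, 2.32 and 2.86 CPM in males, against 7.32, 6.62 and 8.399 CPM and 5.89, 5.397, 3.099 and 3.06 CPM at day 10. Its change was -3.05 ± 0.33 in females and 0.11 ± 0.28 in males, a difference of -3.17 ± 0.42 (adjusted p = 0.000708). Gm15895, which lies on the strand opposite Il34, differed by 3.28 ± 0.45 (adjusted p = 0.000884), and Il34 by 2.47 ± 0.43 (adjusted p = 0.0125). Contralateral Il34 was at 4.01, 5.65 and 6.64 CPM in females and at 24.6, 64.1, 67.1 and 45.2 CPM in males, and at day 10 at 44.5, 87.1 and 61.5 CPM and 80.8, 152, 117 and 86.3 CPM. Without strand, reads of this pair cannot be told apart. Gm15895, Kynu and Chst7 (2.77 ± 0.45, adjusted p = 0.00522) were called with each library left out. The other 9 were not: Cyp4a12a, an androgen-regulated cytochrome with close copies, at 3.06 ± 0.61 (adjusted p = 0.0425), lost its call in 10 of 14 such fits and Abcc3 and Stra6 in 11 of 14. Chst7 was not called with limma-voom (2.74, adjusted p = 0.0895). The count of 31 was 12 without the female contralateral library of replicate 2, 15, 19 and 48 without the male day 10 libraries of replicates 2, 3 and 1, and 19 without the female day 10 library of replicate 3. The majority direction turned without the male day 10 library of replicate 1, with 20 more positive and 28 more negative in females. It also turned with library totals (14 and 17), DESeq2 (35 and 43) and RPKM (9 and 16). The 22 became 14 without the female contralateral or the female day 10 library of replicate 1, 7 without the female contralateral library of replicate 2, and 11 and 14 without the male day 10 libraries of replicates 2 and 3. The 9 more negative became 4 and 5 without those male libraries, 5 without the female contralateral library of replicate 2 and 3 without the female day 10 library of replicate 3. With replicate number as a block it was 44, against 17 in the same libraries without one, and Cyp4a12a was then not called (2.89, adjusted p = 0.123). Bhmt, which had no count in 2 of 3 female day 10 libraries, differed by -5.50 ± 1.05, Ugt1a2 by -3.96 ± 0.73, Clic6 by -3.93 ± 0.73, Cyp2j13 by 2.71 ± 0.47 and Trac by 3.08 ± 0.61.

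**Figure D5:**
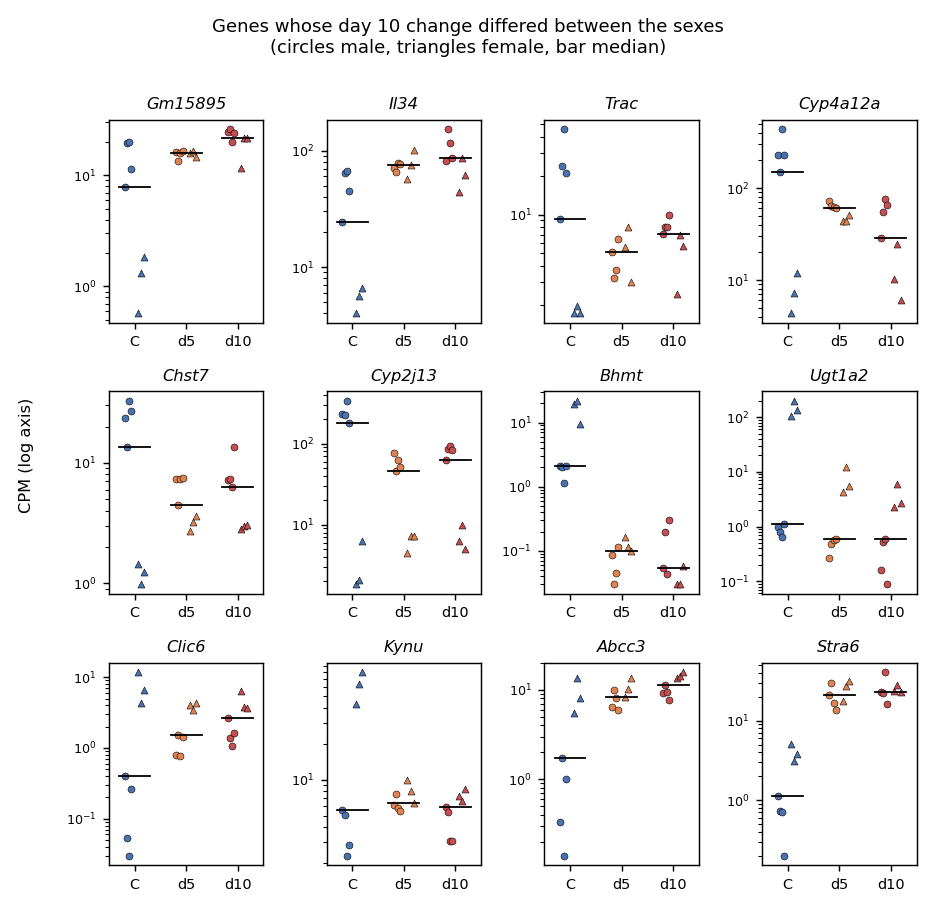
CPM (log axis) in each Total library by sex and state for genes whose day 10 change differed between the sexes, with values of 0 drawn at 0.03 CPM. In each panel the contralateral libraries of males and females do not overlap. The genes were picked by the size of the difference between the sexes.

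The TRAP fraction labelled proximal tubule served to set the Total response beside that of the bound RNA. Markers of other cells rose in that fraction too. At day 10, 25 of 27 macrophage and monocyte markers rose there (median 3.65). So did 18 of 26 fibroblast and pericyte markers (median 1.98) and 14 of 28 lymphocyte markers (median 2.41), and none of these lists had a fall. Of all 17110 genes 3696 rose in the fraction. Whether these reads came from tagged cells was not tested. Over 17110 genes the change in Total exceeded that of the fraction for 184 (1.08%) and was below it for 801 (4.68%), with a median difference of -0.17. Without the male day 10 Total library of replicate 3 the first count was 281. Col12a1, a collagen of fibrous matrix, changed by 4.02 ± 0.25 in Total and by -0.22 ± 0.22 in the fraction, a difference of 4.24 ± 0.32 (adjusted p = 3.21e-12). Its Total level went from 3.73 to 9.59 CPM (median 5.93) to 68.2 to 200.5 CPM (median 79.4), and in the fraction it was at 5.94 to 11.5 CPM and 4.22 to 9.55 CPM. Slc7a2, a cationic amino acid carrier, changed by 3.18 ± 0.35 in Total and -0.74 ± 0.45 in the fraction, and Slco2b1, a carrier of organic anions, by 1.44 ± 0.20 and -2.35 ± 0.25. Ear2 and Arhgap36 rose more in Total, by 6.50 and 4.45. In the other direction Traf1, an adaptor of TNF receptors, changed by 2.86 ± 0.19 in Total and 7.01 ± 0.28 in the fraction, a difference of -4.15 ± 0.34 (adjusted p = 1.59e-11). Rgs4 and Mapk11 changed by 2.57 ± 0.27 and 2.57 ± 0.21 in Total against 7.65 ± 0.49 and 7.01 ± 0.30 in the fraction. Rasd2, Slc44a3 and Cdh13 were not called in Total, at -0.16, -0.06 and 0.82, and differed from the fraction by -4.47, -4.26 and -4.24. Of the 32 injury genes 15 changed less in Total than in the fraction and 2 changed more. Havcr1 was among the 15, with 6.57 ± 0.28 in the fraction, a difference of -2.14 ± 0.31, and Lcn2 among the 2, with 6.07 ± 0.39, a difference of 1.65 ± 0.51 (adjusted p = 0.038). Of 40 carriers 2 differed, Slc2a2 at -1.08 and Slc6a19 at -1.02, while for fatty acid oxidation and for respiratory chain and citrate cycle genes no member was called. Among interferon genes 11 of 31 changed less in Total and 1 more, and among NF-kB genes 9 of 22 changed less and none more. The 3 collagens Col12a1, Col8a1 and Col4a2 changed more in Total, and no collagen was called with a smaller change, and the named members of these lists were chosen after their values were seen.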

How the data were processed

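RNA of mouse kidney cortex was sequenced as Total and GFP-bound fractions in 3 states and both sexes, 42 libraries in all. Per the submitters' processing notes reads were aligned with STAR 2.0.4b and counted with featureCounts 1.4.5 (Subread). The genome build, the annotation and the strand setting are not given in the sources used here. The authors deposited raw counts per gene symbol, which carried the tests, and RPKM values, scaled by gene length and depth, which served an alternative on log2(RPKM + 1). Both tables had 0 sample columns without a mapped sample.

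The 21 Total libraries were fitted in edgeR 4.0.16 (R 4.3.3) with filterByExpr, TMM factors and 1 mean for each sex and state, and the contrast averaged the sexes. A gene was called at an adjusted p under 0.05 and 2-fold. The fraction comparison used all 42 libraries. Intervals of ratios are exact 95% counting intervals and cover counting error only, as does the floor of 3 counts per library. The count of each library gives its depth, 9307188 to 23780275. DESeq2 1.42.0 and limma 3.58.1 were alternatives. Counts were simulated for the 16782 genes tested, with 1 mean per gene over the 21 Total libraries and changes of 2 sizes planted. The filter on low counts then left 16271 genes, with 99 planted genes at each size. Planted genes lost to the filter are not in the shares called. Of those planted at a log2 change of 1.5, 76.8% were called, and 93.9% at 2, and 0% of 16073 unchanged ones. The simulation lacks a shift as broad as that of the 5814 called genes, so it does not give the error rate of this comparison. The block uses the replicate numbers of the labels. Contralateral and day 10 libraries of 1 number deviated together in 7 of 7 numbers (correlations 0.16 to 0.36). What they share was not tested, no pairing is stated in the labels, and the main fit has no block. No 2 libraries of a group agreed within counting noise (smallest chi-square per degree of freedom 16.3).

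Named genes were a set of fixed markers, the 12 largest rises and falls among called genes with a mean of 5 CPM or more in 1 sex and state and ranges separated within each sex, the 10 largest gains and losses of CPM, up to 3 called members of each list in each direction with the most abundant member not called, 3 noncoding RNAs a direction at 1 CPM or more, the 8 largest differences from day 5 in each direction, and the 6 largest in each interaction and direction. The members and gene lists were chosen with earlier results of these data known. Gene types came from a mouse reference annotation matched by symbol (39727 of 40701 symbols), and promoters from RefSeq. Results of some genes that this rule names are not reported here.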

Additional observations from a re-analysis of the deposited data

Results flagged for a closer look

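A value that stood far from the others of its sex and state was found in 7 of 76 groups of 4 male libraries checked over 39 genes. The rule was run on CPM and flags any count where the other libraries of a group have none, so the share flagged is not set against chance. Among contralateral males, Krt20 was at 3.27 CPM in replicate 2, Retnla at 0.335 CPM in replicate 1, Rgs16 at 0.133 CPM and Adgra1 at 0.0666 CPM in replicate 4, and Bhmt at 1.13 CPM in replicate 3. The other contralateral males had no count of Retnla, Rgs16 or Adgra1, so those flags rest on a few reads. Among day 10 males, replicate 3, the library that stood apart on the second component, was at 95.1 CPM for Ccl2 and at 65.0 CPM for C1qa.

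The change at day 10 differed between the sexes, by the test of the difference itself, for 12 named genes. The value in females exceeded that in males by 3.28 for Gm15895, 3.08 for Trac, 3.06 for Cyp4a12a, 2.77 for Chst7, 2.71 for Cyp2j13 and 2.47 for Il34 (log2). It was lower in females, at -5.50 for Bhmt, -3.96 for Ugt1a2, -3.93 for Clic6, -3.17 for Kynu, -2.76 for Abcc3 and -2.56 for Stra6. Reads of Ugt1a2 may be shared with other genes of the Ugt1a locus.

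The change in Total differed from that in the fraction labelled proximal tubule for another 12. It was higher in Total by 6.50 for Ear2, 5.32 for Sftpd, 4.45 for Arhgap36, 4.24 for Col12a1, 3.93 for Slc7a2 and 3.79 for Slco2b1. It was lower in Total, at -5.08 for Rgs4, -4.47 for Rasd2, -4.43 for Mapk11, -4.26 for Slc44a3, -4.24 for Cdh13 and -4.15 for Traf1. The call of Sftpd was lost in 14 of 28 fits that left out a library.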

How the results depend on the processing

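Of 164 named genes called at day 10, 160 kept the call with each library left out in turn, in the fits that tested them. In every alternative that tested them as well, 139 kept it. Genes that the filter dropped in a fit were not counted as lost there. Ereg was tested in 16 such fits and Ncr1 in 22, against 27 for Havcr1. Counts that moved by over 1.5 times were these. With a filter of 5 CPM in 3 libraries 3603 genes were called against contralateral, 3580 in males and 40 between the days, since fewer genes were tested. With limma on log2(RPKM + 1) there were 2886, 2856 in males, 3044 in females and 28 between the days. DESeq2 gave 161 between the days and 78 for the difference between the sexes, for which limma-voom gave 17. With an adjusted p alone there were 10128 genes against contralateral and 104 between the days. At 4-fold there were 2618, 20 and 19 for the sexes, and at an adjusted p under 0.01 there were 15 between the days and 9 for the sexes. For the sexes, the libraries compared alone gave 17 and the Lars2 covariate 17. Between the days, 14 were called without the 3 libraries under 3000 CPM of Lars2. These Lars2 settings were chosen after seeing the data. For the other causes, the cause was not tested.

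Leaving out each library moved the counts from 5602 to 6078 against contralateral, 17 to 95 between the days, 12 to 48 between the sexes, 5132 to 5560 in males, 4789 to 5516 in females and 820 to 1113 for the fractions. With replicate number as a block 5717 genes were called against contralateral (5608 in the same libraries without it), 51 between the days (85 without it), 44 between the sexes and 1164 for the fractions. Libraries of days 5 and 10 share only a number (correlations of -0.35 to 0.24, over 0.1 in 2 of 7, 1 best with its own). There the block gave Npy1r 1.59 (adjusted p = 0.0841). Among named genes the calls of Mir6236, Ren1 and Cyp4a12a changed with the block, as given above.

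Signs turned only for genes that were not called. With upper-quartile scaling Slc13a1 was 0.024, Tgm2 0.098, Trac 0.083, Ier3 0.068 and Tyms 0.006. With library size only Slc13a1 was 0.266, Umod 0.073, Tgm2 0.333, Hdc 0.109, Trac 0.313, Cxcl12 0, Cd59a 0.034, Ier3 0.269, Tyms 0.224 and Bpgm 0.096. With the 5 CPM filter Tgm2 was 0.019 and Trac 0.001, and with limma-voom Trac was 0.006 and Nfkbib -0.035. On RPKM Slc13a1 was 0.259, Umod 0.093, Tgm2 0.299, Trac 0.247, Cd59a 0.055, Ier3 0.308, Tyms 0.222 and Bpgm 0.069. With the block Nfkbib was -0.017. The Lars2 covariate gave Tgm2 0.059 and Nfkbib -0.26, and Ier3 was 0.02 without the 3 libraries low in Lars2. With 1 library left out Slc13a1 ran from -0.236 to 0.08, Trac from -0.199 to 0.177, Tyms from -0.24 to 0.01, Ier3 from -0.184 to 0.052, Tgm2 from -0.115 to 0.021, Nfkbib from -0.179 to 0.199 and Hdc from -0.5 to 0.36. The share of called genes that were higher moved by over 10 percentage points with library size only, in males from 61.2% to 83%, in females from 58.1% to 69.8% and between the sexes from 71% to 45.2%. For the fractions it was 18.7% and became 31.4% with DESeq2 and 33.3% with limma-voom. Genes near or under the floor of 3 counts carry the least certain values.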
